A study of Cynara cardunculus with 36 samples.

Results

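The 150 gene models described here moved in opposite directions during cold storage of artichoke hearts, depending on the cultivar. In each of them the mean level at day 14 was at least 2-fold higher than at day 0 in 1 or more cultivars and at least 2-fold lower in 1 or more others, which is a change of 1 or more on the log2 scale in each direction. The level is log2 CPM, counts per M (mega) of the reads in genes of its library, after scaling and with a small constant added. Of 28632 gene models in the deposited tables, 21923 had 10 or more reads in 3 or more libraries. Of these, 927 (4.23%) met both conditions, and the 150 with the widest range of change between cultivars were kept. All 150 are accounted for below. Because the day 0 and day 14 values chose them, those values are a description and carry no test. The day 7 libraries entered the choice only through the filter on reads and the scaling, not through the changes. The 2 left-out day 14 libraries played no part in it.

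RNA was sequenced from hearts, the tender inner part of the globe artichoke head (Cynara cardunculus var. scolymus), of 4 cultivars: Green Globe Improved (GGI), Opal (OP), Green Queen (GQ) and Imperial Star (IS). Each cultivar was sampled after 0, 7 and 14 days in the cold, with 3 biological replicates each time, giving 36 libraries in 12 groups. All plants, those sampled at day 0 included, were field grown with GA (gibberellic acid, a plant growth hormone) to bring flowering forward. All heads were held cold for a time before the day 0 sampling, so day 0 is not the moment of harvest. The labels describe the series as browning progression and state an interest in genes behind rapid ageing and loss of quality.

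An artichoke head is an immature flower head that goes on respiring after it is picked. In cold storage such heads lose water and sugars, and their cut or bruised tissue browns when phenolic compounds, abundant in this species, are oxidised by enzymes. The deposited tables name gene models by ID only, and 0 of the 28632 IDs matched the RefSeq gene table, so no gene name, function or position is given for any of them. The IDs carry the number of a sequence group, from 1 to 17, or a scaffold code, which is used below only as an order of IDs.

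Reads in genes numbered 5.76 to 54.5 M per library, with a median of 39.6 M. At day 7, OP replicate 1, GGI replicate 2 and GQ replicates 2 and 3 stood apart by their reads outside gene models (71, 33.5, 31.6 and 30.1% of the reads listed, against 16% or less in every other library). OP replicate 1 was also the shallowest. Crossed cultivar markers were carried by 2 day 14 libraries, those labelled GGI replicate 1 and GQ replicate 1, each of which showed the other cultivar's marker states, and the choice of genes left them out. The day 14 groups of GGI and GQ therefore hold 2 libraries each, and the remaining 10 groups hold 3. Hearts are bulk tissue, in which fewer cells of a type and less RNA per cell cannot be told apart.

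All 4 cultivars took part on both sides of the opposition. Here a gene model is said to rise or fall in a cultivar when its mean changed by 1 or more on the log2 scale, with no test. By this measure 72 of the 150 gene models rose and 56 fell in IS, 70 rose and 52 fell in GQ, 61 rose and 51 fell in OP, and 51 rose and 66 fell in GGI. On the log2 scale the median rises in OP, IS, GGI and GQ were 2.63, 3.46, 2.79 and 3.49, and the median falls were -3.18, -3.34, -2.64 and -2.57. Over all 21923 gene models, a rise of this size was seen in 17.3% (OP), 18.9% (IS), 19.8% (GGI) and 18% (GQ), and a fall in 21.5, 23.4, 25.4 and 20.4%. GGI is thus the cultivar with the fewest risers and the most fallers among the 150.

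Which cultivars stood on which side varied widely from gene to gene. The 150 gene models fell into 40 different patterns of rising and falling cultivars. The commonest arrangement was 2 rising cultivars against 1 falling (39 gene models), followed by 1 against 1 (28), 1 against 2 (26), 3 against 1 (22), 2 against 2 (21) and 1 against 3 (14). Each gene model has a top cultivar, with the largest rise or the least fall, and a bottom cultivar at the other end. GQ was the top cultivar in 51, IS in 49, OP in 34 and GGI in 16, and GGI was the bottom cultivar in 46, IS in 44, OP in 34 and GQ in 26. The most frequent pairings were GQ over IS (31), IS over GQ (23) and OP over GGI (22), while OP over GQ occurred once. Among the 150, IS and GQ were the cultivars that most often stood at opposite ends. These counts come from the values that chose the genes and are given without a share over all gene models.

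**Figure D1:**
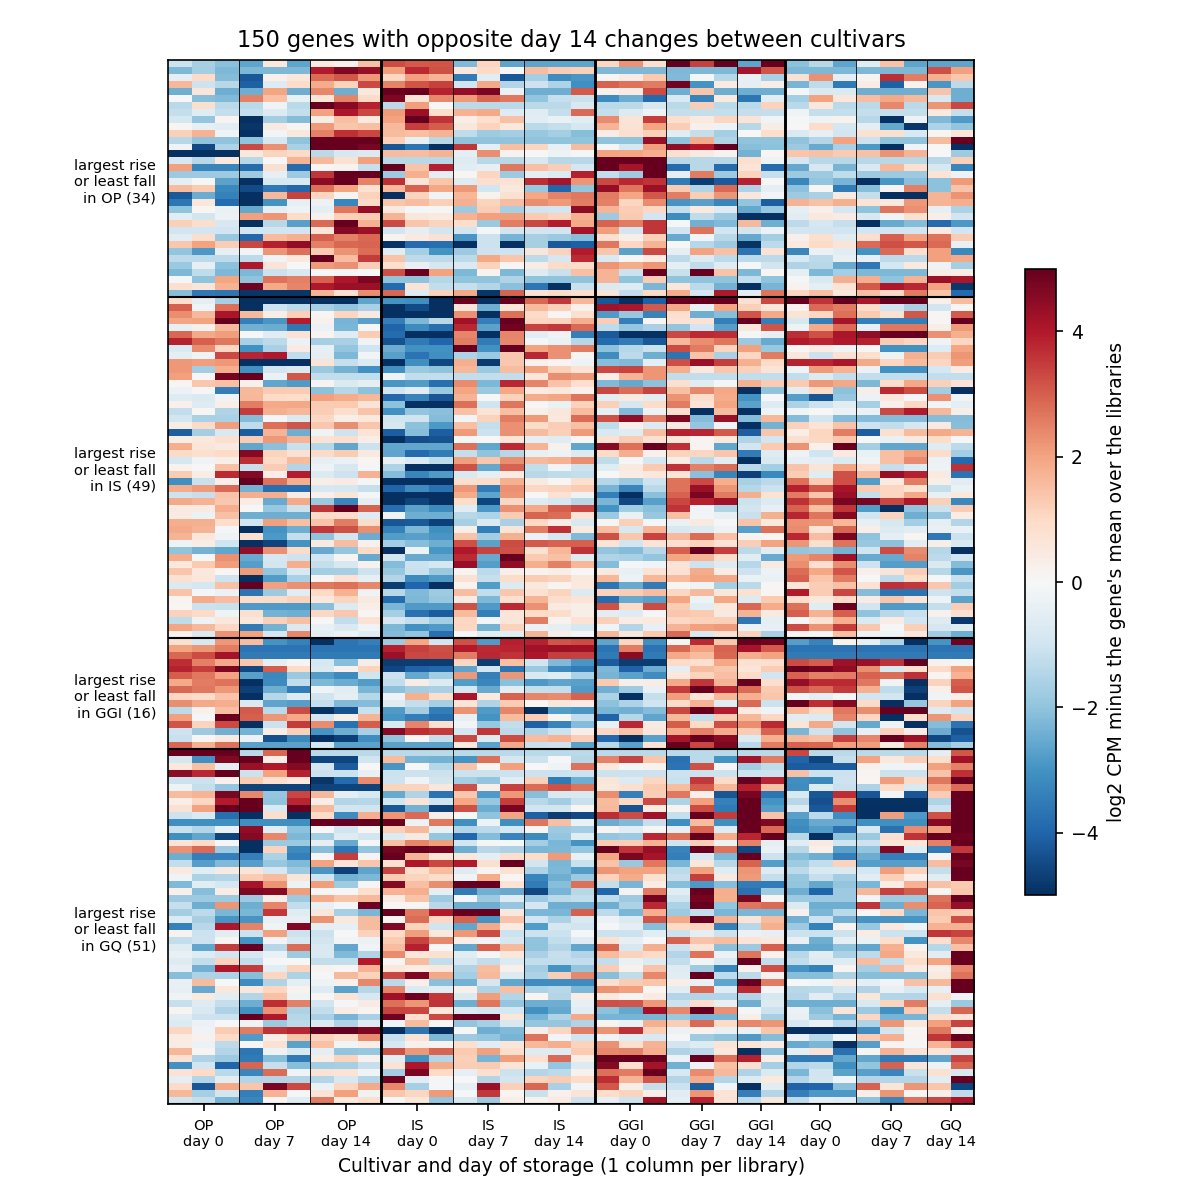
Log2 CPM of the 150 gene models (rows) in the 34 libraries used (columns, ordered by cultivar and by day of storage), each minus the mean of the gene model over the libraries; red is above and blue below that mean, and the colour scale ends at 5 in either direction. Rows are grouped by the cultivar with the largest rise or least fall (OP 34, IS 49, GGI 16, GQ 51); the IS block shows low day 0 levels in IS, and many rows differ between libraries of 1 group.

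Replicates bounded how far single members can be read. In 91 of the 150, the day 14 libraries did not overlap the day 0 libraries in at least 1 rising and at least 1 falling cultivar; in 37 this held in a rising cultivar only, in 20 in a falling cultivar only and in 2 in neither. Among the risers, libraries did not overlap in 63 of 72 (IS), 51 of 70 (GQ), 44 of 61 (OP) and 34 of 51 (GGI). Over all gene models, day 14 lay above day 0 without overlap in 32.2% (IS), 32.3% (GQ), 26.3% (OP) and 32.3% (GGI). Among the fallers it was 35 of 51 (OP), 39 of 56 (IS), 46 of 66 (GGI) and 41 of 52 (GQ), where 28.8, 32.7, 33.7 and 32.5% of all gene models lay below day 0 without overlap. The split into 91, 37, 20 and 2 was not counted over all gene models. All these counts come from the values that chose the genes, and nothing is read from them.

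The same holds for calls at an adjusted p under 0.05 in edgeR's quasi-likelihood test. At day 14 against day 0, 78 of the 150 were called in IS (32.7% of all gene models), 49 in OP (25.9%), 45 in GQ (21.7%) and 42 in GGI (29.2%). In both directions at once, in different cultivars, 35 of the 150 (23.3%) were called, and of all gene models 119 (0.543%). A further 97 of the 150 were called in 1 direction and 18 in none. The 97 and the 18 are given without a share over all gene models, and nothing is read from them. The difference between cultivars in the day 14 change was called for 66 of the 150, or 44%, with 2.22% over all gene models. The counts depended on single libraries, as they did for all gene models: 29 were called in OP without OP day 14 replicate 2 (16.6% of all gene models), 16 in GGI without GGI day 14 replicate 2 (9.38%), and 15 in GQ without GQ day 14 replicate 3 (6.72%). In the GGI and GQ cases the day 14 group is left with 1 library, and its spread is taken from the remaining groups. DESeq2 called 74 in GQ (28.4% of all gene models) and 111 for the difference between cultivars (7.39%).

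Taken library by library, the rises were least even in GQ and GGI. Of the 70 risers of GQ, 64 were 1 or more above the GQ day 0 mean in replicate 3 and 54 in replicate 2, with median changes of 4.57 and 2.42, and 48 were so in both. Over all gene models that rose in GQ, the median changes were 2.2 in replicate 3 and 1.71 in replicate 2. GGI had 34 of 51 risers above that mark in both of its libraries (66.7%), against 73% of all gene models that rose in GGI. In IS, 62 of 72 risers passed it in all 3 libraries (86.1%, against 78.8% of all risers of IS), and in OP 45 of 61 (73.8%, against 71.2%). GQ day 14 replicate 3 held the highest level of 16 of the 150, more than any other library (10.7%, against 6.7% of all gene models).

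The 150 were low and uneven compared with all gene models, on measures that are not independent of their choice. Their median of mean log2 CPM was 0.60, against 3.43 for all gene models tested. In 108 the highest group mean was 10 CPM or more, in 41 it was 100 CPM or more, and in none was it under 1 CPM. The 42 gene models (28%) with at least 1 group at 0 reads compare with 9.41% of all gene models. The median range within a group was 1.78 on the log2 scale, against 0.619 for all gene models. OP day 7 replicate 1 and IS day 7 replicate 2 each lay 1 or more outside both of their fellow libraries in 60% of the 150; over all gene models these shares were 55.4 and 21.5%.

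Little separated the members nearest the limit from those just outside. V2_11g004290.1.01, the last gene model inside, had a range of change of 5.75 on the log2 scale, with a rise of 1.47 in IS and changes of -1.78 in OP, -4.27 in GGI and -2.88 in GQ. The first outside, V2_02g007430.1.01, had a range of 5.70, with a rise of 3.69 in GGI and a change of -2.01 in OP. The member nearest the threshold of 1 was V2_16g011130.1.01, whose weaker side changed by 1.10. Just outside that threshold was V2_13g014370.1.01, whose weaker side changed by 0.99 with a range of 5.87.

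The gap between top and bottom cultivar is fixed in part by the choice, which took genes by the change between these days, and is a description. At day 0 the top cultivar lay below the bottom cultivar in 147 of the 150, by a median of 4.03 on the log2 scale (the median difference, top minus bottom, was -4.03). At day 14 it lay above in 147, by a median of 2.91. For all gene models, each with its own top and bottom cultivar, the medians were -0.53 and 0.49. In 115 of the 150 the order crossed, from 1 or more below at day 0 to 1 or more above at day 14. In 21 the gap closed to under 1, in 10 it opened from under 1, in 2 it narrowed without closing and in 2 it widened.

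Levels at day 0 were spread unevenly over the cultivars. GGI held the highest day 0 mean in 53 of the 150 (35.3%, against 25.7% of all gene models) and the lowest in 9 (6%, against 21.9%). IS held the lowest day 0 mean in 62 (41.3%, against 32.1%) and GQ in 51 (34%, against 26.6%). At day 14 the places were different: GQ was highest in 49 (32.7%, against 22.8%), and GGI was lowest in 48 (32%, against 24.8%). The median range between the 4 cultivar means was 4.80 at day 0, 3.59 at day 7 and 3.63 at day 14 on the log2 scale, against 0.908, 1.75 and 0.917 for all gene models.

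In the day 7 libraries, which the choice used only for the filter on reads and the scaling, the order of the 2 cultivars was split about evenly. Top minus bottom was above 0 in 76 of the 150, with a median of 0.06 (0.12 for all gene models) and a range of -9.19 to 8.22; in 57 it was 1 or more and in 50 it was -1 or less. Of the 115 gene models whose order crossed, 56 already had the top cultivar above the bottom one at day 7. The median share of the shift reached by day 7 was 0.522 for the 150 and 0.631 for all gene models. In 109 of the 150 day 7 lay between the day 0 and day 14 gaps, in 30 beyond the day 14 gap, and in 11 on the far side of the day 0 gap. Since the choice made the outer gaps wide, a place between them at day 7 is a description.

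**Figure D2:**
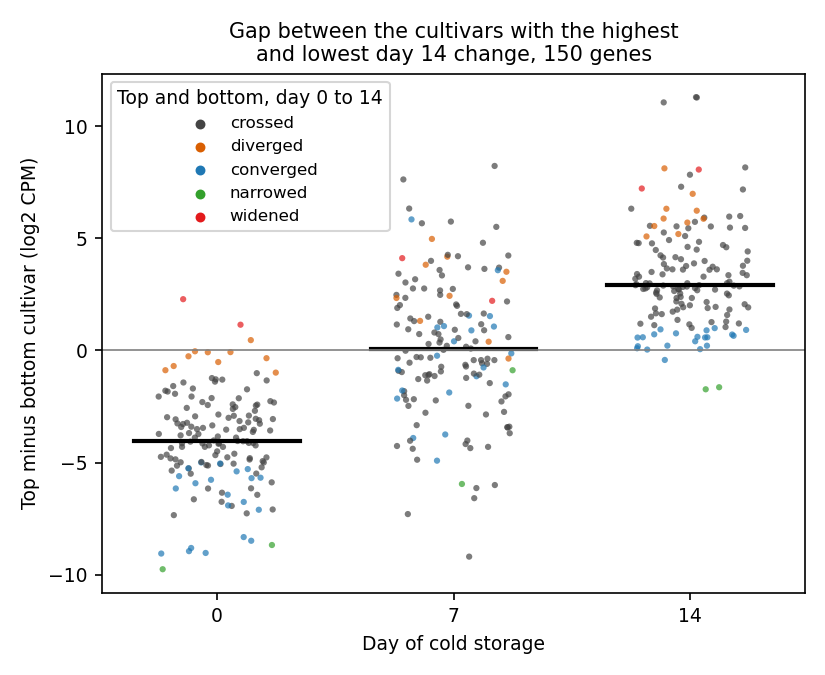
Difference in mean log2 CPM between each gene model's top and bottom cultivar (largest and smallest day 14 change) at day 0, 7 and 14 of storage; points are the 150 gene models, coloured by how the gap changed, and bars are medians. The medians were -4.03, 0.06 and 2.91, and at day 7 the points lie on both sides of 0, with 76 of 150 above it.

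By itself, day 7 separated the cultivars in many of the 150, and in many of all gene models. The F test over the 4 cultivar means at day 7 called 92 of the 150, or 61.3%, where 50% of all gene models were called (edgeR's quasi-likelihood test, adjusted p under 0.05). Between the top and bottom cultivar of each gene model, 48 were called (32%, against 22.9% of all gene models). Of these, 29 were higher in the top cultivar (13.2% of all gene models) and 19 were higher in the bottom cultivar (9.72%). Day 7 calls ran in both directions over all gene models too, so the split is not read as a trait of the 150. By pair of cultivars, calls at day 7 numbered 50 for OP against GGI (14.8% of all gene models), 44 for OP against IS (13.2%), 13 for IS against GGI (2.91%), 40 for OP against GQ (25.6%), 52 for IS against GQ (38.3%) and 44 for GGI against GQ (35%). As shares of the 150 these were 33.3, 29.3, 8.67, 26.7, 34.7 and 29.3%, above the share of all gene models in the pairs among OP, IS and GGI and below it for IS and GGI against GQ. The day 7 libraries GQ replicates 2 and 3, high in reads outside gene models, stand in every pair with GQ, and their part was not tested. A fit of the day 7 groups alone called 24 in the F test (16%, against 4.54%) and 3 between top and bottom (2%, against 0.803%). Without GQ day 7 replicate 1 the share of the 150 was below that of all gene models, at 60% against 64.4% in the F test and 31.3% against 31.7% between top and bottom. Without the 4 day 7 libraries high in reads outside gene models, 62 were called in the F test (41.3%, against 26.5%) and 25 between top and bottom (16.7%, against 11.1%).

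Risers reached their day 14 levels at different times in different cultivars. From day 0 to day 7 the median change of the risers was 2.79 in IS, 2.25 in GGI, 0.53 in GQ and 0.40 in OP on the log2 scale. From day 7 to day 14 it was 0.54 in IS, 0.39 in GGI, 2.78 in GQ and 2.58 in OP. IS and GGI risers had thus covered most of their rise by day 7, and OP and GQ risers little of it. All gene models that rose showed medians to day 7 of 1.17 in IS, 0.84 in GGI, 0.15 in GQ and 0.17 in OP. From day 7 to day 14 their medians were 0.80 in IS, 1.24 in GGI, 1.99 in GQ and 1.91 in OP. By these medians, the risers of GGI over all gene models moved more after day 7 than before it. To day 7, OP and GQ were again behind IS and GGI. Of the 6 day 7 libraries of OP and GQ, 3 are among those high in reads outside gene models, and their part in this was not tested; the median shift of the OP risers was -0.69 in OP replicate 1, 1.48 in replicate 2 and 0.50 in replicate 3. That of the GQ risers was 0.10 in GQ replicate 1 and, in the libraries high in such reads, 0.37 in replicate 2 and 0.80 in replicate 3. For the GGI risers it was 2.50 in GGI replicate 1, 3.22 in replicate 2 and 1.56 in replicate 3. GGI replicate 2 is also high in such reads, and its part was not tested. In OP, IS and GQ the fallers moved early, with medians to day 7 of -2.73, -1.82 and -2.18 and medians from day 7 to day 14 of 0.00, -1.21 and -1.04. GGI fallers moved by -1.40 and then by -1.42. In 14 of the 51 GGI risers (27.5%), day 7 stood 1 or more above both day 0 and day 14, against 3.19% of all gene models that rose in GGI.

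Against day 0, the test at day 7 called 51 of the 150 in IS (12.8% of all gene models), 32 in GGI (12.7%), 29 in OP (8.23%) and 39 in GQ (33.5%). These calls share their day 0 libraries with the choice of genes and are a description. At day 7, 42 were higher in IS (8.28% of all gene models) and 9 were lower (4.56%). In GGI 21 were higher (7.32%) and 11 lower (5.34%), and in OP 9 were higher (5.16%) and 20 lower (3.07%). GQ had 15 higher (17.2%) and 24 lower (16.3%), neither share of the 150 above that of all gene models. The OP count was 13 without OP day 0 replicate 1 (2.69% of all gene models), 14 without OP day 0 replicate 2 (2.07%) and 17 without OP day 7 replicate 1 (3.45%). The IS count was 31 without IS day 0 replicate 2 (6.5%), 31 without IS day 0 replicate 3 (6.63%) and 32 without IS day 7 replicate 3 (5.74%). The GQ count was 19 without GQ day 0 replicate 3 (24.4%), 20 without GQ day 7 replicate 2 (21.9%) and 22 without GQ day 7 replicate 3 (19.1%). A fit of the 2 groups alone called 1 in OP (0.667% of the 150, against 0.0254% of all gene models) and 17 in GQ (11.3%, against 4.53%), so that in GQ the share of the 150 was then the higher one. Without the 4 day 7 libraries high in reads outside gene models, GQ had 5 (3.33%, against 8.37%). DESeq2 called 50 in OP (33.3%, against 16%) and 50 in GGI (33.3%, against 20.9%).

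Single heads did not move in step at day 7. Of the 72 IS risers, 61 in IS day 7 replicate 1 and 63 in replicate 3 were nearer the day 14 than the day 0 mean of IS, but 18 in replicate 2. The median shift from day 0 was 3.77 in replicate 1, 0.45 in replicate 2 and 4.17 in replicate 3. Replicate 2 of IS therefore resembled day 0 for most of these genes, and the same was so for all gene models that rose in IS, of which 70.4, 29.2 and 75.5% were nearer day 14 in replicates 1, 2 and 3. Among the 51 GGI risers the counts were 33, 40 and 28 in replicates 1, 2 and 3 (64.7, 78.4 and 54.9%, against 48.6, 37.8 and 40.5% of all risers of GGI). The 61 OP risers gave 17, 32 and 21 (27.9, 52.5 and 34.4%, against 28.7, 26 and 25.4% of all risers of OP). The 70 GQ risers gave 14, 29 and 25 (20, 41.4 and 35.7%, against 20.4, 30.3 and 35% of all risers of GQ). Fallers were nearer day 14 in 31, 39 and 32 of 51 in OP (60.8, 76.5 and 62.7%, against 64.1, 33.4 and 31.6% of all fallers of OP). In IS they were so in 39, 29 and 39 of 56 (69.6, 51.8 and 69.6%, against 66.2, 37.2 and 68%). In GGI it was 37, 29 and 34 of 66 (56.1, 43.9 and 51.5%, against 46.3, 35.3 and 44.6%). In GQ it was 26, 29 and 23 of 52 (50, 55.8 and 44.2%, against 29.5, 39.6 and 46.8%).

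**Figure D3:**
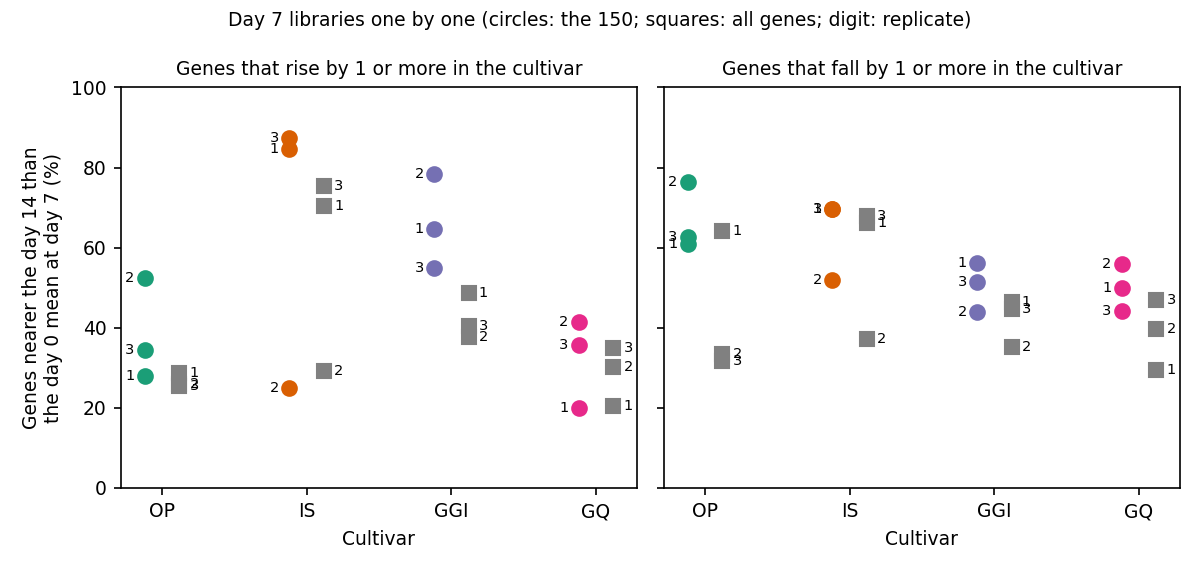
Share (%) of the gene models that rose (left) or fell (right) by 1 or more in a cultivar that were nearer its day 14 mean than its day 0 mean in each day 7 library; coloured circles are the 150, grey squares all gene models, and the digit is the replicate. Among IS risers, replicates 1 and 3 lie at 84.7 and 87.5% and replicate 2 at 25%.

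The largest pattern, with 11 gene models, set IS and GGI against OP and GQ. In these the median log2 CPM at days 0, 7 and 14 was -0.08, 3.97 and 3.51 in IS and -0.44, 6.79 and 3.63 in GGI. In OP it was 4.77, 0.72 and 0.92, and in GQ 7.21, 5.93 and 4.31. By these medians OP and GQ began high and IS and GGI began low, and the day 7 median was highest in GGI. At day 7 the mean of IS and GGI was above that of OP and GQ in 7 of the 11, with a median difference of 2.62 and a range of -2.18 to 4.29.

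V2_12g008340.1.01, chosen from these 11 after its values were seen as the member with the widest range of change in the pattern, shows this course. OP libraries held 32.7, 12.9 and 5.54 CPM at day 0, 0, 0.121 and 0.345 CPM at day 7 and 0.185, 0.139 and 2.80 CPM at day 14. IS libraries held 2.18, 2.06 and 0.253 CPM at day 0, 525.8, 0.230 and 591.1 CPM at day 7 and 129.7, 203.8 and 55.8 CPM at day 14. In GGI it was at 0.878, 0.361 and 1.005 CPM at day 0, 545.8, 843.6 and 849.8 CPM at day 7, and 30.5 and 172.6 CPM in the day 14 libraries kept. In GQ it was at 595.8, 215.9 and 730.8 CPM at day 0, 300.4, 694.4 and 893.2 CPM at day 7, and 21.1 and 53.2 CPM at day 14. OP and IS day 14 libraries do not overlap their day 0 libraries, and neither do those of GGI and GQ. At day 7 only IS replicate 2 fell away from the other IS libraries, to a level near those of OP. The cultivars differed at day 7 (edgeR's quasi-likelihood F test, adjusted p = 0.000404).

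The mirror pattern, OP and GQ rising against IS and GGI falling, held 7 gene models. Their median log2 CPM at days 0, 7 and 14 was -2.08, -1.52 and -0.10 in OP and -2.85, -0.07 and 0.52 in GQ. In IS it was 1.85, 0.25 and -1.82, and in GGI 0.83, -0.16 and -3.19. By these medians the 7 were lower in level than the 11 of the largest pattern, except at day 0 in IS and GGI, where they were higher. A further 7 rose in OP, IS and GQ and fell in GGI, where the median went through 3.88, 1.93 and 1.27, and another 7 rose in GQ and fell in IS alone.

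For each cultivar, the member with the largest rise and the one with the largest fall were singled out among those with 5 CPM or more and with libraries that did not overlap on either side. This gave 6 gene models, since 2 of them held a place in 2 cultivars, and "largest" below means among the candidates that met these conditions.

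V2_08g011220.1.01 had the largest rise in OP. It was at 123, 347 and 41 CPM in the OP day 14 libraries, against 0.0231, 0 and 0 CPM at day 0, where it had 1 read in 3 libraries. The OP mean was 170 ± 159 CPM at day 14 and 0.00771 ± 0.0134 CPM at day 0 (SD, n = 3 each). On the log2 scale its OP change was 11.09 ± 0.91 (SE), and the ratio of summed reads per M was 16300, and its 95% interval by the Clopper-Pearson method, which covers counting error only, ran from 2930 to 645000. In IS it had 0 reads in the 3 day 14 libraries, against 0.39, 0.103 and 0.0253 CPM at day 0, at least 9.01-fold lower if 3 counts are allowed over the IS day 14 group. In GQ it was at 0.539 and 7.35 CPM at day 14, against 0, 0.0224 and 0.726 CPM at day 0, with overlap. GGI had 0 and 0 CPM at day 14, against 0, 0 and 3.95 CPM at day 0. Outside OP at day 14, no library used exceeded 7.35 CPM. The rise was not yet visible at day 7, when OP had 0, 0.0605 and 0 CPM (3 reads), and the cultivars were not called different then (edgeR's quasi-likelihood F test, adjusted p = 0.31).

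V2_06g008100.1.01 held both the largest fall in OP and the largest rise in GGI. In OP it was at 0, 0.223 and 0.271 CPM at day 14, against 5.74, 1.94 and 15.4 CPM at day 0, a change of -5.12 ± 1.22 (SE, log2). GGI day 14 libraries held 1700 and 96 CPM, against 0.498, 7.2 and 0.357 CPM at day 0, a change of 8.43 ± 2.46 (SE, log2). The 2 GGI libraries differ many times over, yet both exceed all GGI day 0 libraries. In IS it was at 49, 30.3 and 32.8 CPM at day 14, against 0.94, 13.2 and 1.77 CPM at day 0. In GQ it was at 0.394 and 99.8 CPM at day 14, against 0.463, 0.292 and 3.86 CPM at day 0, so that 1 GQ library was high and the other was within the day 0 range. Day 7 levels were 9.85, 0.383 and 0.28 CPM in OP, 30.8, 0.439 and 51.4 CPM in IS, 3.56, 45.3 and 8.94 CPM in GGI, and 2.55, 1.14 and 0 CPM in GQ. The cultivars were not called different at day 7 (edgeR's quasi-likelihood F test, adjusted p = 0.098), but they were without OP day 7 replicate 1, the highest OP library (adjusted p = 0.0282); over all 42 alternatives the range was 0.0282 to 0.237.

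V2_15g008870.1.01 had the largest rise in IS. IS day 14 libraries held 9.43, 7.47 and 12.1 CPM, against 0.0459, 0 and 0.0253 CPM at day 0, where it had 3 reads in all. The IS means were 9.65 ± 2.31 CPM at day 14 and 0.0237 ± 0.0230 CPM at day 0 (SD, n = 3 each), the change was 7.09 ± 0.34 (SE, log2), and the ratio of summed reads per M was 356 with a 95% counting interval of 121 to 1730. It fell in GQ, with 8.51 and 4.73 CPM at day 14 against 46.7, 16.6 and 65.7 CPM at day 0. GGI changed little, with 2.22 and 2.67 CPM at day 14 against 2.52, 1.89 and 3.37 CPM at day 0. IS was thus the cultivar that started without it. At day 7 it stood at 12.1, 13 and 24.1 CPM in IS, 45.9, 68.5 and 24.4 CPM in GGI, 433, 46.3 and 24.8 CPM in OP and 0.966, 9.66 and 42.3 CPM in GQ. IS, GGI and OP were each above their day 0 libraries without overlap. The difference between cultivars at day 7 was called (edgeR's quasi-likelihood F test, adjusted p = 0.00743), but not without OP day 7 replicate 1, the highest library (adjusted p = 0.221, the highest of 42 alternatives, the lowest being 0.000535), nor in a fit of the day 7 groups alone (adjusted p = 0.135).

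V2_02g003640.1.01 had the largest fall in IS and the largest rise in GQ among the candidates. Its range of change was also the widest of the 150. In IS it was at 0.433, 0.252 and 0.304 CPM at day 14, against 37.8, 57.8 and 9.6 CPM at day 0, a change of -6.22 ± 0.80 (SE, log2). The 2 GQ libraries held 73.8 and 8430 CPM at day 14, against 1.18, 3.16 and 0.885 CPM at day 0, a change of 9.00 ± 3.46 (SE, log2). Replicate 3 of GQ thus gave most of its 354262 day 14 reads in that cultivar, though replicate 2 was also above all GQ day 0 libraries. GGI libraries were uneven at day 14, with 994 and 21.6 CPM at day 14 against 104, 78.5 and 148 CPM at day 0. OP was at 16.3, 0.862 and 28.7 CPM at day 14, against 3.89, 4.91 and 0.538 CPM at day 0. Day 7 levels were 7.93, 1.99 and 32.7 CPM in IS, 0.193, 34.1 and 1.05 CPM in GQ, 3.6, 446 and 91.7 CPM in GGI and 0, 14.8 and 0 CPM in OP. The day 7 difference between cultivars was at the threshold (edgeR's quasi-likelihood F test, adjusted p = 0.0458) and was lost under 29 of 42 alternatives, over which it ranged from 0.0086 to 0.463.

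V2_01g014040.1.01 had the largest fall in GGI. GGI day 14 libraries held 0 and 1.28 CPM, against 54.3, 37 and 55.9 CPM at day 0, a change of -7.57 ± 2.39 (SE, log2). In IS it was at 7.02, 7.74 and 6.17 CPM at day 14, against 2.71, 3.55 and 1.44 CPM at day 0, and the libraries did not overlap. OP libraries overlapped between the days, with 1.26, 1.97 and 1.27 CPM at day 14 against 4.33, 4.94 and 0.449 CPM at day 0, and so did those of GQ. GGI was thus the highest cultivar at day 0, and IS at day 14. At day 7 GGI was still at 15.4, 28.3 and 20.5 CPM, OP was at 16.4, 13.3 and 13 CPM, IS was at 21, 1.42 and 20.5 CPM and GQ was at 6.63, 70.7 and 52.2 CPM. All OP day 7 libraries lay above those of OP at day 0 and day 14. The cultivars were not called different at day 7 (edgeR's quasi-likelihood F test, adjusted p = 0.331).

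V2_02g017190.1.01 had the largest fall in GQ and belongs to the 11 of the largest pattern. In GQ it was at 0.124 and 0.192 CPM at day 14, against 12.7, 11.4 and 43.2 CPM at day 0, a change of -6.50 ± 0.66 (SE, log2). OP fell as well, to 0.0615, 0.111 and 0.422 CPM at day 14, against 1.83, 4.25 and 5.45 CPM at day 0. It rose in IS, with 11.8, 13.3 and 9.41 CPM at day 14 against 0.963, 4.21 and 1.72 CPM at day 0, and in GGI, with 2.44 and 13.7 CPM at day 14 against 0.214, 0.0602 and 0.559 CPM at day 0. None of the 4 cultivars overlapped between the days. By group mean, day 7 was the highest day in 3 cultivars: GGI reached 69.8, 399 and 91.8 CPM, GQ 22, 128 and 80.1 CPM, and IS 39.8, 2.45 and 38.6 CPM, while OP was at 3.28, 0.141 and 0.388 CPM. GQ therefore held a high level at day 7 and lost it between day 7 and day 14. The cultivars differed at day 7 (edgeR's quasi-likelihood F test, adjusted p = 0.000363, range over 42 alternatives 7.7e-07 to 0.0421).

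**Figure D4:**
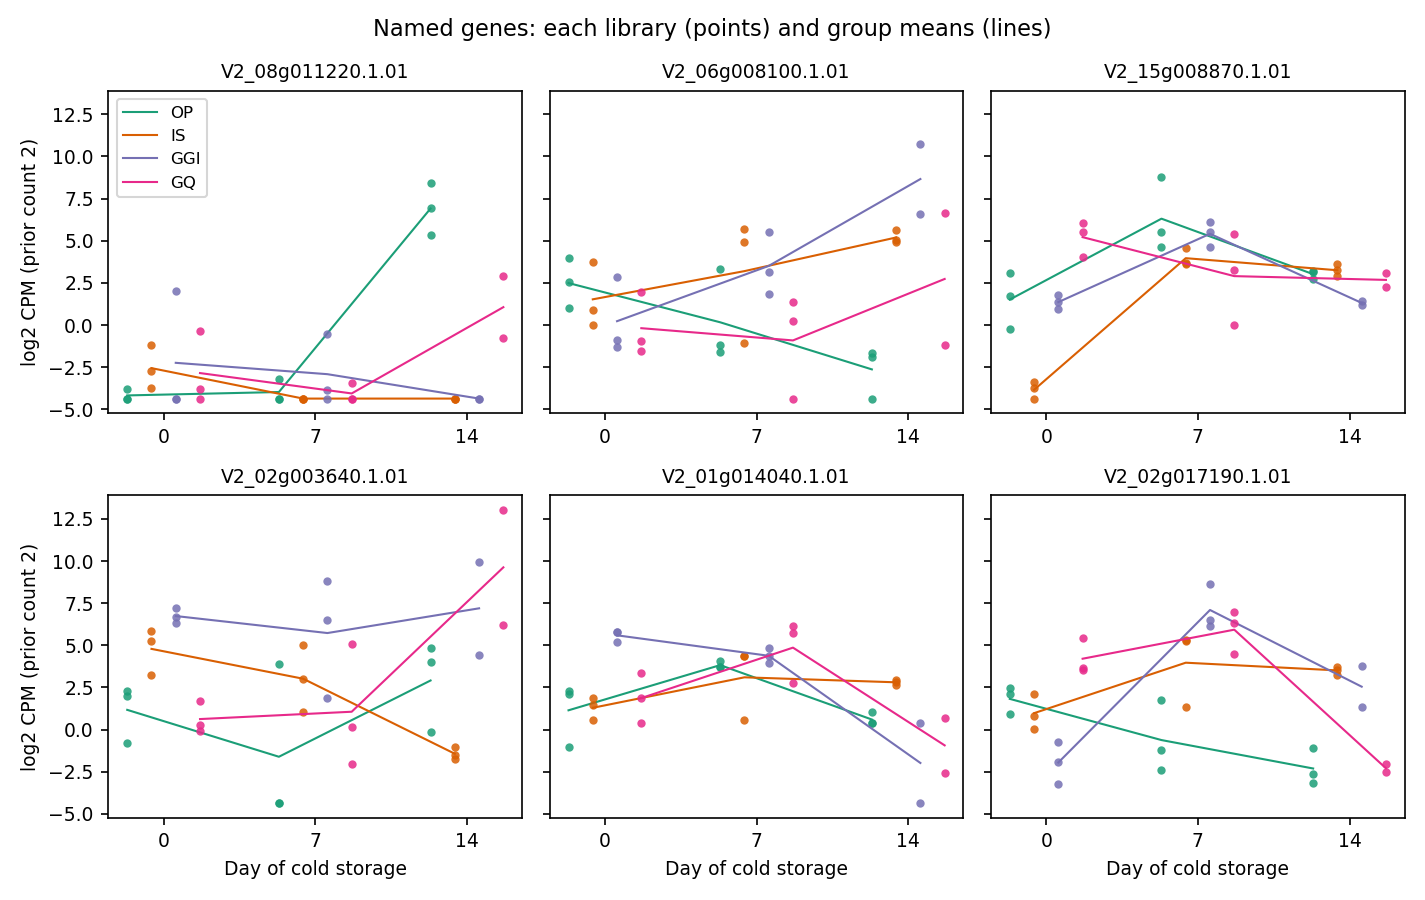
Log2 CPM (prior count 2) of the 6 named gene models by day of cold storage; points are single libraries, lines join the group means of each cultivar (OP, IS, GGI, GQ), and points are shifted sideways by cultivar. V2_08g011220.1.01 reaches 41 CPM or more in the OP day 14 libraries and 7.35 CPM at most in the others, while the means of V2_02g017190.1.01 are highest at day 7 in IS, GGI and GQ.

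The 2 left-out day 14 libraries give a reading outside the choice. In 51 of the 150 gene models, the day 14 means of the GGI and GQ libraries kept differed by 2 or more on the log2 scale. The library labelled GGI replicate 1 was nearer the GQ mean in 40 of these (78.4%), and the library labelled GQ replicate 1 was nearer the GGI mean in 45. Over all 1063 gene models with such a gap, 80.5% were nearer GQ in the library labelled GGI, and 13.5% were nearer GQ in the library labelled GQ, against 11.8% of the 51. Most of the 51 thus went with the crossed markers in these libraries, as did most of all gene models with such a gap. The rest of the 150 were not placed. For V2_02g003640.1.01 the library labelled GGI held 5638 CPM and the library labelled GQ held 833.9 CPM, both above all day 0 libraries of either cultivar. V2_06g008100.1.01 had 23.4 CPM in the library labelled GGI and 996.3 CPM in the library labelled GQ, where the GGI libraries kept held 96 and 1700 CPM. V2_08g011220.1.01 had 9.08 CPM in the library labelled GGI and 0 CPM in the library labelled GQ, where the GGI libraries kept held 0 and 0 CPM and the GQ libraries kept 0.539 and 7.35 CPM.

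**Figure D5:**
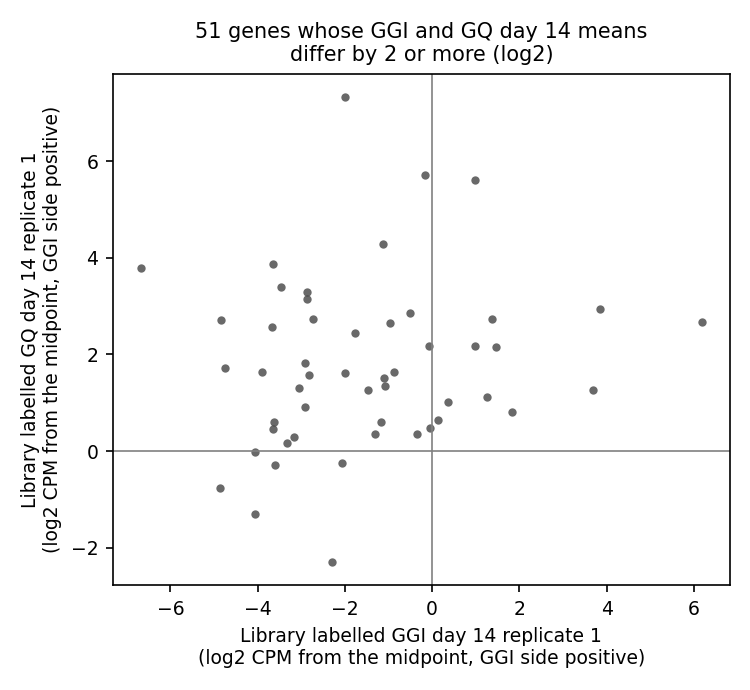
Position of the 51 gene models with a day 14 gap of 2 or more between GGI and GQ in the 2 left-out libraries, as log2 CPM from the midpoint of the GGI and GQ means, positive on the GGI side; each point is 1 gene model. On the horizontal axis (library labelled GGI replicate 1) 40 of 51 points lie on the GQ side, and on the vertical axis (library labelled GQ replicate 1) 45 of 51 lie on the GGI side.

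By ID, the 150 came from all 17 numbered groups and from scaffolds. In the numbered groups they made up from 0.27% of the gene models tested in group 14 (2 of 741) to 1.08% in group 16 (10 of 922). A further 3 were on scaffolds (2.1% of 143). In the order of IDs, 10 pairs lay within 5 places of each other. The number of such pairs for 150 gene models drawn at random was not worked out. Of the 10 pairs, 3 shared the same pattern of rising and falling cultivars. The top and the bottom cultivar were both shared in 4 pairs, 1 of them among the 3 with the same pattern.

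The 3 consecutive IDs V2_15g000720.1.01, V2_15g000730.1.01 and V2_15g000740.1.01, singled out after their values were seen, were high in the same libraries. In the GGI day 14 libraries kept they were at 51.6, 550.8 and 113.4 CPM in replicate 2 and at 0, 0.398 and 0.142 CPM in replicate 3, in that order of IDs. In the GQ day 14 libraries kept they were at 0.498, 1.39 and 0.477 CPM in replicate 2 and at 37.5, 292.6 and 83.6 CPM in replicate 3. The left-out libraries were high too, with 27.7, 164.9 and 57.5 CPM in the library labelled GGI and 21.9, 521.3 and 122.1 CPM in the library labelled GQ. In OP, where they fell, day 14 levels of V2_15g000730.1.01 were 9.42, 1.56 and 1.48 CPM, against 5.11, 12.1 and 103.8 CPM at day 0, with overlap. Their high day 14 levels in GQ and in GGI thus came from 1 of the 2 libraries kept in each. Consecutive gene models may share reads if they are near-identical copies, and how such reads were counted is not given in the sources used here.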

How the data were processed

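Read counts were deposited by the authors, unnormalized and whole, in 1 file for each library covering 28632 gene models. Cutadapt and STAR were used per the submitters' processing notes, with no version; not given in the sources used here are the counting tool, genome build, annotation and strandedness, so the counts of near-identical, overlapping or antisense gene models are uncertain. The summary rows of reads without a gene model (13.9 to 85.2% of the reads listed, median 16%) entered neither library sizes nor tests. Libraries were grouped by the sample titles. The labels call the replicates biological, and p-values measure the spread between them. Library numbers run in 1 block per day, so library order and day cannot be told apart. No 2 replicates agreed within sampling noise (chi-square per degree of freedom 53.1 or more in 36 pairs), so each library was counted as 1 sample.

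CPM were computed with edgeR 4.0.16 (limma 3.58.1, R 4.3.3) after TMM scaling, as log2 CPM with a prior count of 2, for gene models with 10 or more reads in 3 or more of 34 libraries. The library labelled GGI day 14 replicate 1 and the library labelled GQ day 14 replicate 1 were left out; their values were read on a scale set with all 36 libraries. glmQLFit (robust) and glmQLFTest were applied to 1 fit of the 12 groups (biological coefficient of variation 0.496), with Benjamini-Hochberg adjustment over all 21923 gene models and calls at an adjusted p under 0.05. The fit was tested on simulated data. Each SE of a change combines the SDs of log2 CPM of its day 14 and day 0 libraries. Intervals are 95% Clopper-Pearson intervals, and both they and floors of 3 counts cover counting error only.

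The 150 gene models and the tests were chosen with earlier results of these data known. The named genes are, for each cultivar, the member with the largest rise and the one with the largest fall among members with a group mean of 5 CPM or more at day 0 or day 14 and with day 14 and day 0 libraries that do not overlap there and in at least 1 cultivar that moved the other way; the members at the rule's limits are named too. The classes of gap (crossed, closed, opened, narrowed, widened) and their threshold of 1 were set after the values were seen. Planned lists of genes by product name could not be made, since 0 IDs matched the 30275 genes of the RefSeq table. The alternatives were other scalings, filters and prior counts, all 36 libraries, a replicate block, leaving out libraries, a fit of the compared groups alone and DESeq2 1.42.0.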

Additional observations from a re-analysis of the deposited data

Results flagged for a closer look

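For all 6 named gene models the day 14 change differed between cultivars in edgeR's quasi-likelihood F test. The adjusted p was 0.00111 for V2_02g017190.1.01, 0.00536 for V2_15g008870.1.01, 0.0092 for V2_08g011220.1.01, 0.0225 for V2_02g003640.1.01, 0.0429 for V2_06g008100.1.01 and 0.0495 for V2_01g014040.1.01. These gene models were chosen for this very difference, from the same libraries, so the values describe how the differences compare with the spread between libraries and are no independent evidence of them. The last and least clear of them, V2_01g014040.1.01, fell in GGI by 7.57 on the log2 scale, with 0 and 1.28 CPM in the GGI day 14 libraries kept, against 54.3, 37 and 55.9 CPM at day 0. The cause of these differences was not tested.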

How the results depend on the processing

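The conditions on direction held for most members under other settings, but the limit of 150 moved with them. With all 36 libraries in their labelled groups, 977 gene models met both conditions, 134 of the 150 among them, and 117 were still among the 150 with the widest range. With a prior count of 0.5 these numbers were 1241, 149 and 104, with a prior count of 5 they were 695, 140 and 127, and with RLE scaling 921, 150 and 146. Leaving out 1 library at a time gave 889 to 1146; 139 to 150 of the members still met the conditions, and 107 to 144 were still among the 150 with the widest range. The replicate numbers come from the titles and do not pair the libraries: deviations from the group means correlated with a mean r of 0.00128 over 135 pairs with the same number and 2.6e-06 over 270 pairs with different numbers. With a replicate block, 84 of the 150 were called between cultivars at day 7 and 62 for the difference in the day 14 change, and no count of calls moved by over 1.5 times. These counts are given without the share of all gene models called.

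Leaving out 1 library, the count called at day 14 against day 0 was 29 to 54 in OP, 53 to 81 in IS, 16 to 49 in GGI and 15 to 53 in GQ. For the difference between cultivars in the day 14 change it was 47 to 82 (1.31 and 3.31%). Between cultivars at day 7 it was 78 to 95 (40 and 50.7%), and between top and bottom cultivar at day 7 it was 39 to 50 (17.7 and 23.5%). At day 7 against day 0 it was 13 to 33 in OP (2.69 and 9.36%) and 31 to 61 in IS (6.5 and 16.7%). In GGI it was 23 to 43 (7.27 and 19.4%), and in GQ 19 to 48 (24.4 and 41.4%). In both tests between cultivars at day 7, the share of the 150 called was above that of all gene models in 33 of 34 such fits and below it without GQ day 7 replicate 1. At day 7 against day 0, it was above in 34 of 34 fits in OP, IS and GGI and in 0 of 34 in GQ. At day 14 against day 0, it was above in 34 of 34 in OP, IS and GQ and in 7 of 34 in GGI. For the difference in the day 14 change it was above in 34 of 34, on the values that chose the genes. DESeq2 called 74 in GQ at day 14, 111 for the difference in the day 14 change, and 50 in OP and 50 in GGI at day 7 against day 0. Fits of the compared groups alone called 112 for the difference in the day 14 change, 24 between cultivars at day 7, 3 between top and bottom cultivar, and 1 in OP and 17 in GQ at day 7 against day 0. Without the 4 day 7 libraries high in reads outside gene models, 111 were called for the difference in the day 14 change, 25 between top and bottom cultivar at day 7, and 5 in GQ at day 7 against day 0. The cause of these shifts was not tested. The 112 of the fits alone and the 111 without the 4 libraries stand without the share of all gene models called. Nothing is read from them. The changes of the named gene models kept their sign under all alternatives run. Of their values, 221 stayed within the spread between replicates while 3, all with another prior count, did not. Where 1 library was left out, this was all but fixed in advance, since the same libraries set the spread. Nothing is read from it: the GQ change of V2_02g003640.1.01 stayed within the spread while running from 5.58 to 12.42. Gene models at a few reads are limited by depth, and with 2 libraries in the GGI and GQ day 14 groups single libraries decide many values.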
